A study of Arabidopsis thaliana with 9 samples.

Results

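Wild-type seeds of the Arabidopsis accession Ara-1, kept in the dark and given no KAR2, were compared with KAR2-treated seeds of a line that overexpresses AtKAI2 (AtKAI2OE) in the accession Col-0. The comparison took every library of both groups, 3 of each, and so 6 of the 9 libraries of the series. The other 3 are untreated AtKAI2OE seeds, whose values are given beside the comparison. KAR2 is a karrikin, a germination stimulant of the kind found in smoke, and it was given at 0.5 μM. Whole seeds of every group had 24 h of darkness after 4 days of imbibition at 4 °C. The paper reports that overexpression of AtKAI2 alone did not trigger germination in the dark, so untreated AtKAI2OE seeds may not have germinated. Germination of the sequenced Ara-1 seeds was not measured in these data. The labels also give, for every group, a light level of 0.3 µM m-2 s-1 at which the seeds were spread. The 2 groups therefore differ in accession, in AtKAI2 dosage and in KAR2 at once, and the part of each cannot be told apart from this comparison alone. The labels name Col-0 for the overexpressor, whereas the study's methods describe overexpression lines made in the htl-3 (kai2) mutant, and reads of a transgene and of the endogenous gene cannot be told apart. Reads were mapped to the Col-0 genome, so for Ara-1 a poor match to the reference and a low transcript level cannot be told apart either. The labels call the samples of a group biological replicates.

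A dry seed holds messenger RNAs left from maturation, for storage proteins, oil body proteins and late embryogenesis abundant (LEA) proteins, which protect cells during drying. During germination these messages are lost, abscisic acid (ABA) signalling declines and gibberellin (GA) synthesis starts. Oil is then turned into sugar, and replication, cell expansion and greening follow. KAI2 is the receptor of karrikins, and with the F-box protein MAX2 it targets the repressors SMAX1 and SMXL2 for degradation.

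Levels are given as CPM, counts scaled to a common library total, in replicates 1, 2 and 3, scaled over all 9 libraries, and a positive log2 fold change is higher in treated AtKAI2OE. The libraries held 17479888 to 33306518 counts assigned to genes. Ara-1 replicate 1 stood apart from its group, with 35.1% of all counts in entries that name no gene, against 13.4 and 13.6% in the other Ara-1 libraries and 17.6 to 24.6% in treated AtKAI2OE. Its plastid and mitochondrial transcripts also took 1.54 and 2.33% of gene counts, against at most 0.600 and 0.618% in the other Ara-1 libraries. Of 17978 genes tested, 5795 (32.2%) were higher and 5417 (30.1%) lower in treated AtKAI2OE by edgeR's quasi-likelihood test at an adjusted p of 0.05, and 2770 and 2454 of them by at least 2-fold. Without Ara-1 replicate 1 these counts were 5806 and 5709. The median log2 fold change over all tested genes was 0.01, and 62.4% of tested genes were called in either direction, so a list with a like share called does not stand out. The 3 libraries of each group did not overlap for 69.7% of tested genes.

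**Figure D1:**
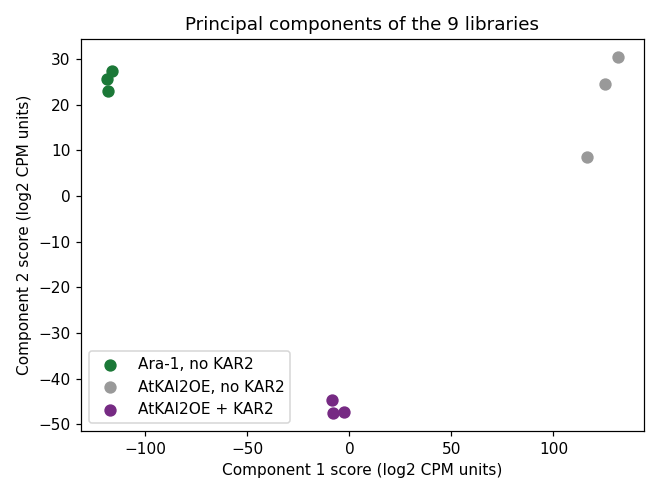
Scores of the 9 libraries on the first 2 principal components of log2 CPM (1 point per library, coloured by group). Treated AtKAI2OE lies between untreated AtKAI2OE and Ara-1 on component 1, at -2.84 to -8.32, and apart from both on component 2, at -44.6 to -47.5.

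On the first principal component, which held 81.5% of the variance, the treated seeds lay 54.0% of the way from the untreated seeds of their own line to Ara-1. The second component, with 9.23%, set the treated seeds apart from both other groups. Among the genes called at least 2-fold higher in treated AtKAI2OE than in Ara-1, 2218 of 2770 (80.1%) had a still higher mean in untreated AtKAI2OE. Among those called at least 2-fold lower, 1998 of 2454 (81.4%) had a still lower mean in untreated AtKAI2OE. Most of these genes, which were chosen for a difference between Ara-1 and treated AtKAI2OE, thus had their treated mean between the other means. In many of them the AtKAI2OE groups were close, since the untreated mean lay within 0.5 of the treated mean on the log2 scale for 605 of the 2770 higher genes (21.8%) and 836 of the 2454 lower genes (34.1%). The untreated libraries took no part in the call, but the treated libraries are shared by both comparisons.

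**Figure D2:**
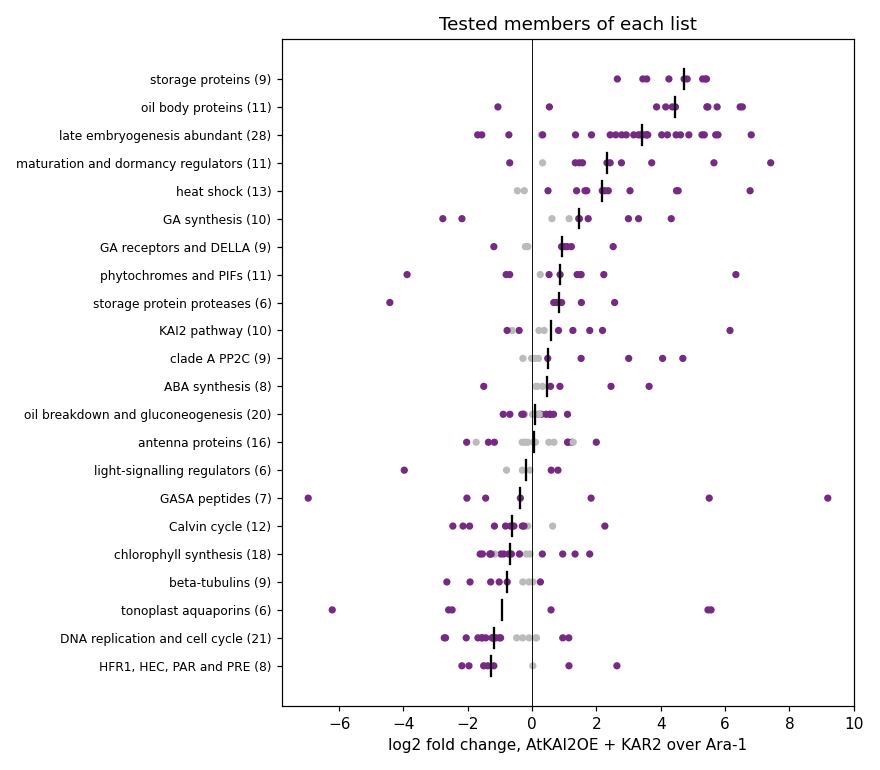
Log2 fold change of each tested member of the gene lists with at least 6 tested members (1 point per gene, purple where past an adjusted p of 0.05, grey otherwise, black bar the median, number of tested members in brackets). Seed maturation lists lie to the right, with medians from 2.18 to 4.73, and the replication, tubulin, chlorophyll synthesis and Calvin cycle lists to the left, while antenna proteins centre near 0 with a median of 0.07.

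The clearest difference lay in messages of seed maturation. All 9 tested storage protein genes were higher in treated AtKAI2OE, with a median log2 fold change of 4.73 against 0.01 over all genes. CRA1 (chromosome 5, 17756238 to 17758336, TAIR10.1), which encodes a 12S globulin, stood at 128, 249 and 126 CPM in Ara-1 and at 6785, 7215 and 6999 CPM in treated AtKAI2OE. Every treated library was above every Ara-1 library (log2 fold change 5.42 ± 0.31 SE, edgeR adjusted p = 5.5e-06). In untreated AtKAI2OE the same message reached 45879, 82510.3 and 48610.1 CPM. CRC (chromosome 4, 14087556 to 14089796), another globulin gene, had 116, 137 and 78.6 CPM in Ara-1 and 4266, 4923 and 4379 CPM in treated AtKAI2OE (log2 fold change 5.39 ± 0.23 SE, edgeR adjusted p = 1.5e-06). The smallest difference of the list belonged to the 2S albumin gene SESA1, with 20.3, 7.42 and 9.8 CPM against 78.6, 82.5 and 63.2 CPM (log2 fold change 2.65 ± 0.35 SE, edgeR adjusted p = 0.00036). Together the storage protein genes took 0.0298 to 0.0538% of gene counts in Ara-1, 1.39 to 1.47% in treated AtKAI2OE and 8.71 to 14.2% in untreated AtKAI2OE. Fewer cells that hold a message and less message per cell cannot be told apart in whole seeds.

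Oil body proteins followed the same order. Oleosins coat the seed's oil bodies, and of 11 tested genes of the list 10 were higher and 1 was lower. OLEO1 stood at 73.1, 99.3 and 77.9 CPM in Ara-1 and 1809, 1912 and 1635 CPM in treated AtKAI2OE (log2 fold change 4.46 ± 0.15 SE, edgeR adjusted p = 5.8e-07), and its untreated libraries were at 17039, 12296 and 18846 CPM. OLEO2 differed more (log2 fold change 5.75 ± 0.14 SE, edgeR adjusted p = 1.8e-07), with 16.7, 22.1 and 17.7 CPM against 1038, 995 and 940.0 CPM. OLEO3 differed least among the higher genes, with 17.7, 19.7 and 21.7 CPM against 26.3, 30.1 and 27.3 CPM (log2 fold change 0.54 ± 0.10 SE, edgeR adjusted p = 0.0023). The steroleosin gene HSD1 (log2 fold change 6.47 ± 0.17 SE, edgeR adjusted p = 2.0e-07) has a near-identical annotated copy, AT5G50700, with a nearly equal level, so the share of each is uncertain. The gene that was lower was HSD3, with 2.54, 2.96 and 3.71 CPM against 2.23, 1.43 and 0.643 CPM (log2 fold change -1.06 ± 0.40 SE, edgeR adjusted p = 0.05), a call that was lost in 11 of 18 alternatives. The vacuolar water channels TIP3;1 and TIP3;2, which are typical of protein storage vacuoles, stood at 16.8 ± 3.01 and 8.47 ± 1.69 CPM in Ara-1 (mean ± SD, n = 3) and at 724 ± 48 and 391 ± 34.8 CPM in treated AtKAI2OE, with log2 fold changes of 5.47 and 5.56. The vegetative channel TIP1;2 ran the other way, with 38.6, 33.7 and 33.9 CPM in Ara-1 and 0.743, 0.295 and 0.304 CPM in treated AtKAI2OE.

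Of 28 tested LEA genes, 24 were higher, 3 were lower and 1 was not called, and the median log2 fold change was 3.40. EM1 (chromosome 3, 19214722 to 19215831) had 46.1, 50.8 and 42.3 CPM in Ara-1 and 1294, 1402 and 1275 CPM in treated AtKAI2OE (log2 fold change 4.87 ± 0.11 SE, edgeR adjusted p = 1.5e-07). EM6 (chromosome 2, 16779552 to 16780368) had 21.2, 54.3 and 37.4 CPM against 909, 933 and 866 CPM (log2 fold change 4.61 ± 0.32 SE, edgeR adjusted p = 1.5e-05). RAB18, a dehydrin that ABA induces, had 62.1, 64.5 and 50 CPM against 2263, 2561 and 2204 CPM (log2 fold change 5.35 ± 0.15 SE, edgeR adjusted p = 2.5e-07). In all 3 of these genes the lowest treated library lay far above the highest Ara-1 library. The 3 LEA genes that were lower are COR47, ERD10 and ERD14, dehydrins known for their response to cold and drought in vegetative tissue. ERD14 stood at 46.4, 37.6 and 37.9 CPM in Ara-1 and at 11.9, 11.8 and 12.9 CPM in treated AtKAI2OE (log2 fold change -1.69 ± 0.11 SE, edgeR adjusted p = 9.7e-06), while untreated AtKAI2OE held only 4.3, 3.65 and 3.61 CPM. SAG21, which was not called, had 252, 289 and 361 CPM against 374, 356 and 341 CPM. Without Ara-1 replicate 3 its log2 fold change was 0.43, at an edgeR adjusted p of 0.0068. The LEA list took 0.116 to 0.132% of gene counts in Ara-1 and 1.22 to 1.23% in treated AtKAI2OE. Heat shock genes showed the same direction, with 11 of 13 tested members higher and none lower. HSFA9, the heat shock factor of the maturing embryo, stood at 0, 0.217 and 0.0849 CPM against 2.94, 2.82 and 2.27 CPM, and HSP17.4, a small heat shock protein, at 0.339, 0.543 and 0.368 CPM against 9.72, 10.8 and 8.93 CPM (log2 fold change 4.54 ± 0.20 SE, edgeR adjusted p = 1.7e-06).

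**Figure D3:**
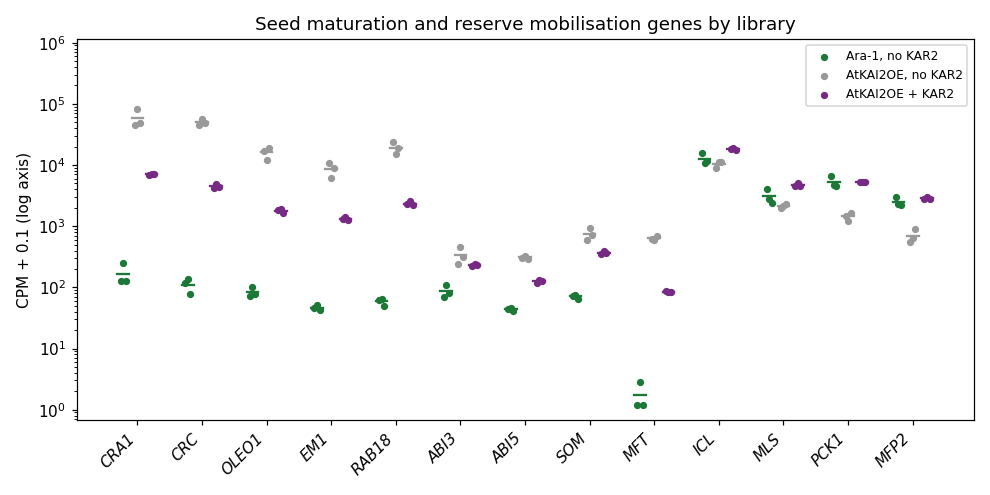
CPM of 13 genes in each of the 9 libraries on a log axis (points are libraries, bars are group means, 0.1 added). The messages of maturation stand in the order Ara-1, treated and untreated AtKAI2OE, whereas ICL, MLS, PCK1 and MFP2 have means within 2-fold of each other in Ara-1 and treated AtKAI2OE.

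Promoters of 4 of these genes are printed because LEA and storage protein genes were higher together and their lists differ in how many promoters hold each of 2 short motifs. The sequences are the 200 bases before the annotated start in RefSeq's TAIR10.1 assembly, 5′ to 3′ on the gene's strand. In EM1 (chr3:19214522-19214721, plus strand) and EM6 (chr2:16780369-16780568, minus strand) capitals mark ACGTGGC or ACGTGTC on either strand, forms of the ABA response element (overlapping matches run together). In CRA1 (chr5:17758337-17758536, minus strand) and CRC (chr4:14087356-14087555, plus strand) capitals mark CATGCA on either strand, the core of the RY element. CRC also holds ACGTGGC, left in lower case, and is the 1 storage protein gene with a motif of the first kind.
EM1: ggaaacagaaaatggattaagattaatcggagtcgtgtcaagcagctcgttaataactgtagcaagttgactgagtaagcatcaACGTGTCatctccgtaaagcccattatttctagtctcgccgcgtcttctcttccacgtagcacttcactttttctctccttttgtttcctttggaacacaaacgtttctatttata
EM6: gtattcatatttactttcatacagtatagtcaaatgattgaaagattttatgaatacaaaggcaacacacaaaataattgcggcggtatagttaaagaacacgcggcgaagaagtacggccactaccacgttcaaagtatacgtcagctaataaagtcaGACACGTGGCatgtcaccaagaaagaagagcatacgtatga
CRA1: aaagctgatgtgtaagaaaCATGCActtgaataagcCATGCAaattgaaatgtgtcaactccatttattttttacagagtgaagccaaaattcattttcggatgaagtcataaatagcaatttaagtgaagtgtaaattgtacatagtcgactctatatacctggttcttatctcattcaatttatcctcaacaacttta
CRC: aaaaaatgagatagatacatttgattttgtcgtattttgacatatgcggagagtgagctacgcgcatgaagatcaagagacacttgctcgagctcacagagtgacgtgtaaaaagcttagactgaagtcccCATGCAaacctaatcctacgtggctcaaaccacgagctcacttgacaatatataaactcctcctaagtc
One of the first pair of motifs stood in 22 of 30 LEA promoters (73.3%), in 1 of 9 storage protein promoters, in 5 of 12 oil body promoters and in 5.64% of all protein-coding promoters of that length. CATGCA stood in 8 of 9 storage protein promoters, in 10 of 12 oil body promoters, in 7 of 30 LEA promoters and in 6.69% of all. These are matches of letters, and binding was not measured.

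Regulators of maturation and dormancy were mostly higher in treated AtKAI2OE as well, with 9 of 11 tested genes higher and 1 lower. ABI3, which activates maturation genes, stood at 69.3, 107 and 80.4 CPM in Ara-1 and 225, 239.6 and 229 CPM in treated AtKAI2OE (log2 fold change 1.47 ± 0.15 SE, edgeR adjusted p = 0.0001). ABI5, a bZIP factor of ABA signalling, stood at 44.6, 45.6 and 40.5 CPM against 119, 130.2 and 127 CPM (log2 fold change 1.57 ± 0.08 SE, edgeR adjusted p = 3.2e-06). SOM, a zinc finger repressor of light-dependent germination, stood at 73, 74.2 and 65.2 CPM against 356, 391 and 365 CPM (log2 fold change 2.43 ± 0.09 SE, edgeR adjusted p = 6.8e-07). The groups did not overlap for any of the 3 genes. MFT, which acts in ABA and GA responses of the seed, had only 1.07, 2.77 and 1.08 CPM in Ara-1 and 85.6, 83.7 and 83.8 CPM in treated AtKAI2OE (log2 fold change 5.65 ± 0.32 SE, edgeR adjusted p = 5.3e-06). DOG1, a main determinant of dormancy, was scarce in both groups, with 0, 0.136 and 0.142 CPM against 0.839, 0.59 and 0.778 CPM. FUS3 had no count in Ara-1 and 0.721 CPM on average in treated AtKAI2OE, at least 21.6-fold higher when 3 counts over the Ara-1 group are taken as the floor. ABI4 was the member that was lower, with 119, 110.5 and 126 CPM in Ara-1, 72.1, 74.2 and 67.1 CPM in treated AtKAI2OE and 7.21, 8.67 and 10.1 CPM in untreated AtKAI2OE (log2 fold change -0.70 ± 0.08 SE, edgeR adjusted p = 0.00017).

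ABA genes were divided. Of 8 tested synthesis genes 4 were higher and 1 was lower, a called share of 62.5% beside 62.4% over all genes. NCED9, a carotenoid-cleaving enzyme of seeds, stood at 0.96, 1.22 and 1.36 CPM in Ara-1 and 15.2, 16 and 12.7 CPM in treated AtKAI2OE (log2 fold change 3.64 ± 0.16 SE, edgeR adjusted p = 1.8e-06), and ABA1, the zeaxanthin epoxidase, at 5.82, 7.04 and 4.73 CPM against 29.2, 31.9 and 32.9 CPM (log2 fold change 2.45 ± 0.15 SE, edgeR adjusted p = 7.5e-06). ABA2, a later step, was the gene that was lower (log2 fold change -1.50 ± 0.13 SE, edgeR adjusted p = 4.3e-05). Both of the called breakdown genes were lower in treated AtKAI2OE. CYP707A2, the main ABA 8′-hydroxylase of imbibed seeds, had 15.1, 16.3 and 14.1 CPM in Ara-1, 4.78, 4.51 and 4.6 CPM in treated AtKAI2OE and 6.82, 7.91 and 6.47 CPM in untreated AtKAI2OE (log2 fold change -1.67 ± 0.10 SE, edgeR adjusted p = 8.4e-06), so it was above both AtKAI2OE groups in Ara-1. CYP707A3 had 12.2, 13.4 and 9.63 CPM against 4.81, 4.17 and 4.84 CPM (log2 fold change -1.31 ± 0.15 SE, edgeR adjusted p = 0.00019), and CYP707A1 was not called (-0.04 ± 0.23 SE). Among the clade A protein phosphatases, which dampen ABA signalling and are themselves induced by ABA, 5 of 9 were higher and none lower, which is also near the share over all genes. HAI2 stood at 3.5, 3.75 and 2.8 CPM against 56.6, 52.3 and 53.6 CPM (log2 fold change 4.06 ± 0.12 SE, edgeR adjusted p = 3.4e-07) and AHG1 at 6.89, 5.22 and 4.64 CPM against 42.1, 45.9 and 40.9 CPM (log2 fold change 3.00 ± 0.15 SE, edgeR adjusted p = 2.8e-06).

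GA genes did not move in one direction. Of 10 tested synthesis genes 6 were higher and 2 were lower in treated AtKAI2OE, with a median log2 fold change of 1.46. The called share was 80%, beside 62.4% over all genes. The 2 lower genes encode the GA 3-oxidases of the list, the last synthesis step, which makes active GA. GA3ox1 (chromosome 1, 5344388 to 5346342) stood at 23.2, 21.7 and 22.4 CPM in Ara-1 and 4.2, 4.97 and 5.28 CPM in treated AtKAI2OE (log2 fold change -2.18 ± 0.11 SE, edgeR adjusted p = 3.8e-06), with at most 0.234 CPM in untreated AtKAI2OE. GA3ox2 (chromosome 1, 30200466 to 30202349) stood at 24.1, 23.7 and 22.8 CPM against 3.23, 4.42 and 2.44 CPM (log2 fold change -2.78 ± 0.20 SE, edgeR adjusted p = 1.5e-05), with no count in untreated AtKAI2OE. For both genes the treated seeds thus lay between the other groups. All 3 genes of the list for the step before, GA 20-oxidase, were higher in treated AtKAI2OE. GA20ox3 stood at 22.9, 21.2 and 20.4 CPM in Ara-1, 419.8, 454 and 385 CPM in treated and 869, 759.5 and 880.3 CPM in untreated AtKAI2OE (log2 fold change 4.33 ± 0.10 SE, edgeR adjusted p = 1.5e-07). GA20ox2 stood at 2.48, 2.06 and 3.23 CPM against 20.9, 19.4 and 20.3 CPM (log2 fold change 2.99 ± 0.17 SE, edgeR adjusted p = 4.9e-06) and GA20ox1 at 2.26, 2.06 and 2.6 CPM against 5.75, 8.34 and 4.7 CPM (log2 fold change 1.47 ± 0.24 SE, edgeR adjusted p = 0.001). The catabolic gene GA2ox2 stood at 9.88, 10.4 and 12.6 CPM against 58.1, 61.4 and 53.2 CPM (log2 fold change 2.42 ± 0.11 SE, edgeR adjusted p = 2.2e-06), higher than in untreated AtKAI2OE, which had 32.8, 32.1 and 40.7 CPM. Of 9 genes for receptors, DELLA repressors and the F-box protein SLY1, 6 were higher and 1 was lower in treated AtKAI2OE (77.8% called). The receptor GID1A stood at 14.6, 15.1 and 14.8 CPM against 84.7, 84.7 and 79.4 CPM (log2 fold change 2.52 ± 0.07 SE, edgeR adjusted p = 2.8e-07), and the DELLA gene RGL2, a repressor of germination, at 199.6, 153 and 163 CPM against 359, 364 and 348 CPM (log2 fold change 1.09 ± 0.11 SE, edgeR adjusted p = 9.3e-05). RGL1 was lower (log2 fold change -1.19 ± 0.13 SE, edgeR adjusted p = 0.00017). Genes of the GASA peptide family split as well, with 3 of 7 tested members higher and 4 lower in treated AtKAI2OE. GASA4 had 90.1, 85 and 87.5 CPM in Ara-1 and 22.5, 16 and 24.1 CPM in treated AtKAI2OE, whereas GASA6, which is known to promote germination, had 43.5, 43.8 and 57.5 CPM against 201, 149 and 155 CPM and only 0.794, 2.49 and 5.81 CPM in untreated AtKAI2OE (log2 fold change 1.83 ± 0.16 SE, edgeR adjusted p = 3.7e-05). GASA3 and GASA2 followed the storage messages, with 6.44, 7.14 and 3.88 CPM and 0, 0 and 0.226 CPM in Ara-1 against 255, 262 and 251 CPM and 52.7, 56.1 and 50.1 CPM in treated AtKAI2OE.

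Genes of reserve mobilisation had no common direction. Of 20 tested genes for oil breakdown and gluconeogenesis 7 were higher, 4 were lower and 9 were not called, and the median log2 fold change was 0.09. The called share was 55%, beside 62.4% over all genes. The list took 2.99 to 3.85% of gene counts in Ara-1, 4.25 to 4.28% in treated and 1.3 to 1.63% in untreated AtKAI2OE, so its summed share was higher in every treated library than in any Ara-1 library. Among the called members only AIM1, of beta-oxidation, differed by more than 2-fold (log2 fold change 1.10 ± 0.16 SE, edgeR adjusted p = 0.0007). PCK1, which commits carbon to sugar synthesis, had 6722, 4784 and 4568 CPM in Ara-1, 5259, 5327 and 5206 CPM in treated and 1485, 1216 and 1651 CPM in untreated AtKAI2OE (log2 fold change 0.01 ± 0.16 SE, edgeR adjusted p = 0.95). ICL (chromosome 3, 7652487 to 7656053), isocitrate lyase of the glyoxylate cycle, had 15805, 10839.9 and 11472 CPM against 18190.2, 18985 and 17479 CPM (log2 fold change 0.56 ± 0.16 SE, edgeR adjusted p = 0.019), and MLS, malate synthase, had 4040.1, 2734 and 2402 CPM against 4594, 4999 and 4587 CPM (log2 fold change 0.66 ± 0.19 SE, edgeR adjusted p = 0.018). Neither ICL nor MLS kept its call in every alternative, and the adjusted p of ICL without Ara-1 replicate 2 was 0.072. ACX1, an acyl-CoA oxidase, was lower (log2 fold change -0.90 ± 0.09 SE, edgeR adjusted p = 7.0e-05), with 329, 288 and 279 CPM against 157, 152 and 159 CPM. Among the 15 members whose means in Ara-1 and untreated AtKAI2OE differed by at least 2-fold, the median position of treated seeds was 100% of the way, on a log2 scale, from untreated AtKAI2OE to Ara-1. The same measure was 42.3% for 9 storage protein genes, 42.9% for 28 LEA genes, 63.4% for 15 replication and cell cycle genes and 72% for 16 chlorophyll synthesis genes. Of the proteases that process or degrade storage proteins, 5 of 6 were higher in treated AtKAI2OE, among them beta-VPE with 78.4, 69.3 and 64 CPM against 396, 426 and 398 CPM (log2 fold change 2.57 ± 0.10 SE, edgeR adjusted p = 9.0e-07). CATHB1 was lower, with a mean of 1.37 CPM in Ara-1 and 0.0564 CPM in treated AtKAI2OE (log2 fold change -4.42 ± 0.83 SE, edgeR adjusted p = 0.0023).

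Genes of DNA replication were further up in Ara-1. Of 21 tested replication and cell cycle genes 14 were lower in treated AtKAI2OE and 2 were higher, with a median log2 fold change of -1.19. The called share was 76.2%, beside 62.4% over all genes. MCM4 (chromosome 2, 7126279 to 7130729), a subunit of the replicative helicase, stood at 40.5, 43.1 and 38.1 CPM in Ara-1, 15.3, 13.7 and 14.7 CPM in treated and 2.45, 2.85 and 2.67 CPM in untreated AtKAI2OE (log2 fold change -1.44 ± 0.09 SE, edgeR adjusted p = 6.8e-06). Its call was lost, at an adjusted p of 0.42, when only the entry under the gene's own identifier was counted. MCM5 (chromosome 2, 3522984 to 3527500), another subunit, stood at 24.1, 28.1 and 22.9 CPM against 9.46, 10.7 and 11.9 CPM (log2 fold change -1.19 ± 0.12 SE, edgeR adjusted p = 0.0001), and PCNA1, the sliding clamp, at 60.4, 55.4 and 59 CPM against 18.1, 15.7 and 19 CPM (log2 fold change -1.69 ± 0.10 SE, edgeR adjusted p = 5.3e-06). In each case the treated seeds lay between Ara-1 and the untreated seeds. CDKB1;1, a mitotic kinase gene, had 6.1, 5.03 and 6.6 CPM in Ara-1 and 0.904, 0.759 and 0.913 CPM in treated AtKAI2OE, but CYCB1;1, a mitotic cyclin gene, had 3.56, 3.67 and 3.68 CPM against 3.49, 3.16 and 3.32 CPM and was not called. CYCD2;1, a cyclin of early cell cycle entry, was higher in treated AtKAI2OE (log2 fold change 0.95 ± 0.19 SE, edgeR adjusted p = 0.003).

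Promoters of 2 helicase subunit genes are printed because 5 of the MCM genes hold the same motif. In MCM4 (chr2:7130730-7130929, minus strand) and MCM5 (chr2:3527501-3527700, minus strand) capitals mark TTTCCCGC, TTTGGCGC, TTTGCCGC or TTTCGCGC on either strand, forms of the E2F site, in the 200 bases before the annotated start.
MCM4: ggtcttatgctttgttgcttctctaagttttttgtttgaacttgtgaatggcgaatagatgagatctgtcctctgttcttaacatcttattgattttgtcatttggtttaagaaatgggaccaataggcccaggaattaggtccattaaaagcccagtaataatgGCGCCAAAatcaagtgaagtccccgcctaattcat
MCM5: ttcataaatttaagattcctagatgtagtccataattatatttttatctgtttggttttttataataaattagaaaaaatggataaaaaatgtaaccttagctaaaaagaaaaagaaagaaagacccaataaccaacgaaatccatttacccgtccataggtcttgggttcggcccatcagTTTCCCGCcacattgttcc
The motif stood in 5 of 22 promoters of the list, all of them MCM genes, and in 1.21% of all protein-coding promoters of that length. PCNA1, which was also lower, had no match. As above, only letters were matched, and binding was not measured.

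Lists for the cytoskeleton, the cell wall and ribosomes differed among themselves. Of 9 beta-tubulins 5 were lower in treated AtKAI2OE and 1 was higher. TUB7 had 445, 366 and 400.3 CPM in Ara-1 and 59.3, 63.5 and 65.1 CPM in treated AtKAI2OE (log2 fold change -2.65 ± 0.10 SE, edgeR adjusted p = 8.1e-07), whereas TUB2 had 552, 475 and 524 CPM against 617, 623 and 566 CPM. TUB2 was the gene that was higher, a call that was lost in 11 of 18 alternatives. Of 16 tested genes named as xyloglucan endotransglucosylases, which remodel the cell wall, 9 were lower and 2 were higher, and XTH24 had 97.7, 66 and 70.5 CPM against 3.94, 3.79 and 4.63 CPM (log2 fold change -4.20 ± 0.19 SE, edgeR adjusted p = 1.7e-06). The called shares of both lists, 66.7 and 68.8%, lay near the 62.4% of all genes. Expansins, which loosen walls, were divided, with 8 of 16 higher and 7 lower. The expansin gene EXPA2, which marks the endosperm of germinating seeds, had 799, 512 and 527 CPM in Ara-1, 937, 972 and 887 CPM in treated and 27.1, 22.1 and 64.3 CPM in untreated AtKAI2OE (log2 fold change 0.64 ± 0.18 SE, edgeR adjusted p = 0.014). MAN2, a mannanase gene, was lower (log2 fold change -1.24 ± 0.11 SE, edgeR adjusted p = 5.2e-05). MAN7 swung within groups, with 8.98, 1.01 and 9.29 CPM in Ara-1 and 0.0323, 14.5 and 0.0338 CPM in treated AtKAI2OE, and no direction can be read from it. Of 312 tested nuclear genes for ribosomal proteins 164 were lower in treated AtKAI2OE and 45 higher (67.0% called), and they took 17.2 to 22.9% of gene counts in Ara-1, 14.4 to 15.4% in treated and 5.39 to 9.38% in untreated AtKAI2OE.

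**Figure D4:**
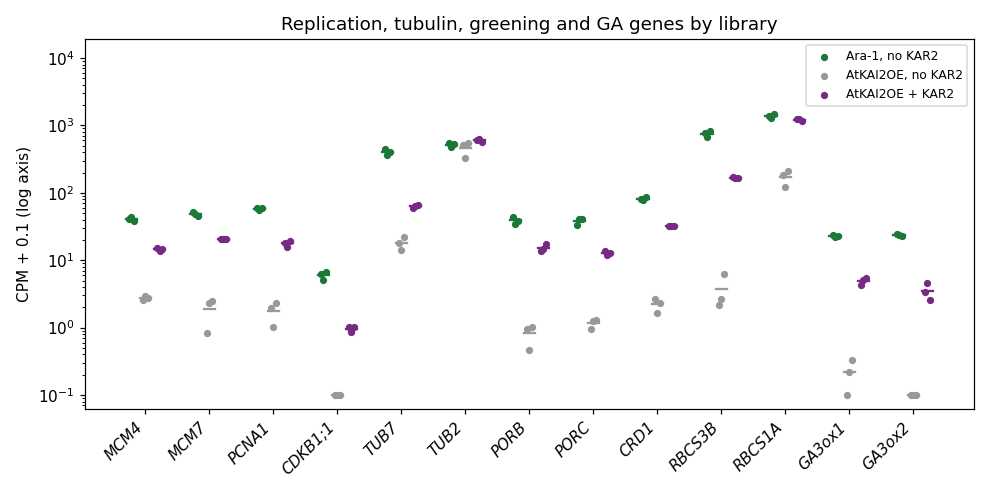
CPM of 13 genes of replication, tubulin, greening and GA synthesis in each of the 9 libraries on a log axis (points are libraries, bars are group means, 0.1 added). Most stand in the order untreated AtKAI2OE, treated AtKAI2OE and Ara-1, while TUB2 and RBCS1A differ little between Ara-1 and treated AtKAI2OE.

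Greening genes were in part higher in Ara-1, although both groups had 24 h of darkness. Of 18 chlorophyll synthesis genes 10 were lower and 4 were higher in treated AtKAI2OE (77.8% called, beside 62.4% over all genes). PORB, a light-dependent protochlorophyllide reductase, stood at 44.2, 34.2 and 38.3 CPM in Ara-1, 13.8, 14.6 and 17.6 CPM in treated and 0.86, 0.361 and 0.937 CPM in untreated AtKAI2OE (log2 fold change -1.30 ± 0.13 SE, edgeR adjusted p = 9.4e-05). PORC stood at 33.5, 40.6 and 40.4 CPM against 13.4, 12 and 12.9 CPM (log2 fold change -1.55 ± 0.10 SE, edgeR adjusted p = 1.0e-05) and CRD1, the cyclase subunit, at 80.2, 77.9 and 87 CPM against 32, 32.4 and 31.8 CPM (log2 fold change -1.31 ± 0.07 SE, edgeR adjusted p = 4.9e-06). Yet HEMA1, the first committed step, was at 16.1, 14.2 and 14.3 CPM against 13.4, 14.6 and 13.4 CPM and not called, and CHLH, a magnesium chelatase subunit, was higher in treated AtKAI2OE (log2 fold change 0.95 ± 0.12 SE, edgeR adjusted p = 0.00035). Calvin cycle genes were lower in 9 of 12 cases and higher in 1 (83.3% called). Members of the Rubisco small subunit family differed among themselves. RBCS3B had 781, 673 and 812 CPM in Ara-1 and 169, 163 and 166 CPM in treated AtKAI2OE (log2 fold change -2.15 ± 0.10 SE, edgeR adjusted p = 1.8e-06), while RBCS1A had 1372, 1274 and 1486 CPM against 1227, 1265 and 1175 CPM and was not called (-0.13 ± 0.09 SE). These genes are close copies, and only reads that mapped to a single place were kept. Antenna protein genes were scarce and had no common direction, with 4 of 16 higher, 3 lower and 9 not called (43.75% called).

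Of 11 tested genes for phytochromes and for the bHLH factors that bind them (PIFs) and their relative SPT, 7 were higher in treated AtKAI2OE and 3 were lower. PHYA, the phytochrome that accumulates in the dark, stood at 560.5, 429 and 360.1 CPM in Ara-1 and 1972, 2151 and 2040.0 CPM in treated AtKAI2OE (log2 fold change 2.23 ± 0.17 SE, edgeR adjusted p = 2.1e-05), a level near that of untreated AtKAI2OE, which had 1859, 2508 and 2721 CPM. PHYB, the main red light receptor of seeds, stood at 31.7, 33.7 and 30.8 CPM against 85.5, 90.1 and 88.7 CPM (log2 fold change 1.49 ± 0.07 SE, edgeR adjusted p = 2.4e-06). PIF1, which represses germination in the dark, stood at 29, 34.7 and 29.1 CPM in Ara-1, 56.6, 53.5 and 55.2 CPM in treated and 63.4, 132 and 97.6 CPM in untreated AtKAI2OE (log2 fold change 0.87 ± 0.09 SE, edgeR adjusted p = 0.00011). PIF6 showed the widest difference of the list, with 0, 1.03 and 0.764 CPM against 63.7, 43.2 and 58.3 CPM (log2 fold change 6.34 ± 0.47 SE, edgeR adjusted p = 1.9e-05). The 3 genes that were lower in treated AtKAI2OE are PIF5, PIF3 and SPT. PIF5 stood at 1.02, 2.58 and 1.78 CPM in Ara-1 and 0.258, 0 and 0.0677 CPM in treated AtKAI2OE, with no count in untreated AtKAI2OE (log2 fold change -3.89 ± 0.73 SE, edgeR adjusted p = 0.0023). PIF3 stood at 15.4, 15.1 and 11.3 CPM against 8.75, 7.25 and 7.21 CPM (log2 fold change -0.81 ± 0.15 SE, edgeR adjusted p = 0.0023), and SPT differed less (log2 fold change -0.70 ± 0.07 SE, edgeR adjusted p = 7.9e-05). Of 8 tested small bHLH factors, some of which modulate PIFs, 2 were higher and 5 lower in treated AtKAI2OE. HFR1 and PAR1 were higher in treated AtKAI2OE, HFR1 with 0, 0.516 and 0.425 CPM against 2.78, 1.69 and 1.96 CPM and no count in untreated seeds (log2 fold change 2.64 ± 0.62 SE, edgeR adjusted p = 0.007). PAR1 had 8.36, 10.7 and 11.9 CPM against 22.8, 23.4 and 20.9 CPM (log2 fold change 1.15 ± 0.13 SE, edgeR adjusted p = 0.00019). HEC2 was lower, with 21.1, 17.7 and 21.5 CPM against 5.13, 5.01 and 4.9 CPM (log2 fold change -1.96 ± 0.11 SE, edgeR adjusted p = 5.5e-06). HY5, which promotes greening in light, was near 1 CPM in both groups and not called.

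A further group of differences lay in the KAI2 pathway itself. KAI2 (chromosome 4, 17616659 to 17618656) stood at 9.77, 7.91 and 7.84 CPM in Ara-1 and 584, 604 and 568 CPM in treated AtKAI2OE (log2 fold change 6.15 ± 0.12 SE, edgeR adjusted p = 1.1e-07), and untreated AtKAI2OE had 129, 129 and 217 CPM. This is the gene the line was made to overexpress, and its level checks the labels. DLK2, a KAI2-related gene that karrikin induces, stood at 0.395, 0.543 and 0.283 CPM in Ara-1, 2.45, 1.65 and 4.87 CPM in untreated and 24.1, 21.3 and 20.4 CPM in treated AtKAI2OE (log2 fold change 5.76 ± 0.21 SE, edgeR adjusted p = 6.8e-07). BBX20, a B-box gene, stood at 6.61, 5.84 and 6.68 CPM, 4.17, 5.3 and 5.3 CPM and 20, 16.3 and 19.2 CPM in the same order (log2 fold change 1.58 ± 0.12 SE, edgeR adjusted p = 2.1e-05). Both genes were thus highest in the treated seeds. The karrikin-induced F-box gene KUF1 differed from them, with 7.51, 6.14 and 5.58 CPM in Ara-1 and 7.26, 7.08 and 7.58 CPM in treated AtKAI2OE (log2 fold change 0.24 ± 0.14 SE, edgeR adjusted p = 0.17), against 0.529, 1.08 and 0.75 CPM in untreated AtKAI2OE. Without Ara-1 replicate 1 the log2 fold change of KUF1 was 0.34, at an edgeR adjusted p of 0.034.

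The repressor genes of the pathway were higher in the overexpressor with or without KAR2. SMAX1 stood at 23.5, 21.6 and 15.9 CPM in Ara-1, 66.6, 104 and 81.7 CPM in untreated and 69.9, 65.3 and 70 CPM in treated AtKAI2OE (log2 fold change 1.79 ± 0.14 SE, edgeR adjusted p = 2.8e-05). SMXL2 stood at 7.17, 6.63 and 5.92 CPM, 18.5, 18.1 and 14.2 CPM and 29.1, 29.5 and 28.7 CPM in the same order (log2 fold change 2.19 ± 0.10 SE, edgeR adjusted p = 1.6e-06). MAX2 had 11.9, 10 and 10.7 CPM in Ara-1 and 12.7, 11.6 and 12.3 CPM in treated AtKAI2OE and was not called (log2 fold change 0.21 ± 0.10 SE, edgeR adjusted p = 0.11), though its adjusted p without Ara-1 replicate 1 was 0.0497. SMXL6 and SMXL7, of the strigolactone branch, were higher, with log2 fold changes of 1.27 and 0.82. The strigolactone receptor gene D14 was lower (log2 fold change -0.78 ± 0.28 SE, edgeR adjusted p = 0.044), but this call was lost in 8 of 18 alternatives, and without Ara-1 replicate 1 the log2 fold change was -0.46 at an adjusted p of 0.084. These are levels of messenger RNA, and the proteins were not measured.

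**Figure D5:**
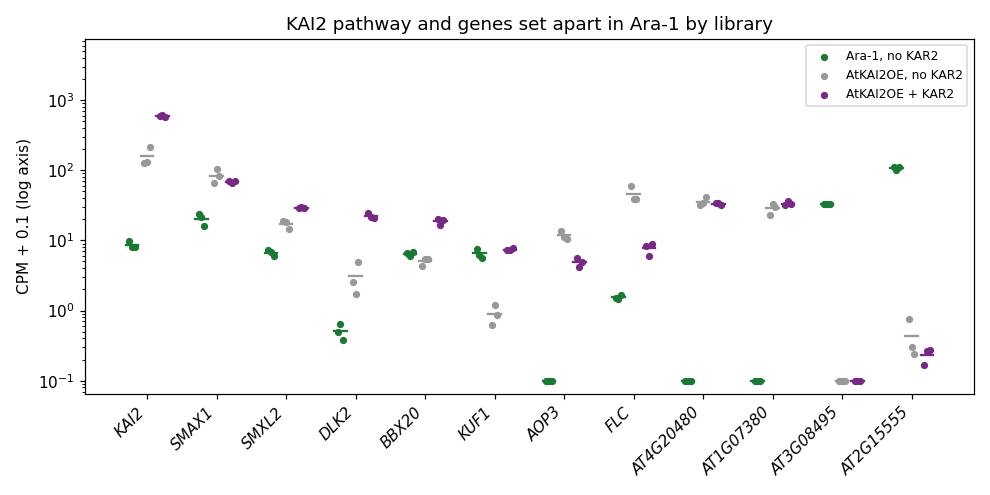
CPM of KAI2 pathway genes and of genes set apart in Ara-1 in each of the 9 libraries on a log axis (points are libraries, bars are group means, 0.1 added, so a library without counts lies at 0.1). KAI2, DLK2 and BBX20 are highest in treated AtKAI2OE, and AT4G20480 and AT1G07380 have no count in Ara-1.

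Some differences set Ara-1 apart from the overexpressor whether or not KAR2 was given. No count was found in any Ara-1 library for 297 genes that had counts in all 3 treated libraries, and 191 of these also had counts in all 3 untreated libraries. Only 144 of the 297 had enough counts to be tested, and some, such as bZIP58, had just 3 counts over the treated group. Conversely, 341 genes had counts in all 3 Ara-1 libraries and none in treated AtKAI2OE, and 291 of them had none in untreated AtKAI2OE either. Of the 341, 131 had enough counts to be tested. The first set includes the maturation regulator FUS3 and the second the cyclin gene CYCA1;1. A zero in a group can thus go with accession or with stage of germination, and the part of each was not tested. AT5G46430 (chromosome 5, 18833240 to 18834632), annotated as ribosomal protein L32e, had 188, 202 and 80.9 CPM in treated and 222, 93.3 and 138 CPM in untreated AtKAI2OE, at least 4704-fold higher than in Ara-1 with a floor of 3 counts over the Ara-1 group. AT4G20480 (chromosome 4, 11033849 to 11035877), annotated as a putative endonuclease or glycosyl hydrolase, had 33.9, 33.5 and 31.9 CPM and 31.6, 34.2 and 41.4 CPM, at least 993-fold higher. AT1G07380 (chromosome 1, 2264634 to 2269121), annotated as a ceramidase, had 31.7, 36 and 32.5 CPM and 23, 32.4 and 29.9 CPM, at least 1001-fold higher. For these 3 genes treated and untreated seeds overlapped. The disease resistance gene RPP1, with 25.5, 23.7 and 22.3 CPM in treated AtKAI2OE, and AT2G31141, with 19.2, 34.6 and 28 CPM, complete the 5 genes with most counts. Untreated AtKAI2OE had higher means of both, 46.5 CPM for RPP1 and 137 CPM for AT2G31141, against 23.8 and 27.3 CPM in treated AtKAI2OE.

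In the other direction AT3G08495 (chromosome 3, 20584885 to 20585722), a long noncoding RNA, had 32.6, 33.3 and 32.9 CPM in Ara-1 and no count in any AtKAI2OE library, at least 926-fold lower in treated AtKAI2OE. AT2G12935, AT3G43574 and AT4G32230 had means of 27.2, 20.3 and 17.7 CPM in Ara-1 and likewise no count in AtKAI2OE, and AT2G32470 had a mean of 16.1 CPM and no count in treated AtKAI2OE. AT2G15555, a noncoding RNA, had 109.5, 101 and 111 CPM in Ara-1 against 0.0646, 0.169 and 0.169 CPM (log2 fold change -9.59 ± 0.18 SE, edgeR adjusted p = 1.1e-07). Genes annotated as NB-ARC disease resistance proteins, which sense pathogens and are known to vary between accessions, were higher in treated AtKAI2OE in 39 of 80 tested cases and lower in 12. Their called share, 63.75%, lay near the 62.4% of all genes. Of all 154 such genes, 18 had no count in Ara-1 and counts in all 3 treated libraries, and 3 showed the reverse. Over all 32830 genes these numbers were 297 and 341. Among loci known to vary between accessions, AOP3, of glucosinolate side chain synthesis, had no count in Ara-1, 5.55, 4.05 and 4.77 CPM in treated and 13.6, 11.1 and 10.5 CPM in untreated AtKAI2OE, at least 144-fold higher in treated seeds. FLC, a floral repressor, had 1.41, 1.36 and 1.59 CPM in Ara-1, 8.3, 5.98 and 8.76 CPM in treated and 58.6, 38.7 and 38.8 CPM in untreated AtKAI2OE (log2 fold change 2.44 ± 0.19 SE, edgeR adjusted p = 2.6e-05). Unlike AT4G20480, FLC therefore also differed between treated and untreated seeds of a single line.

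Among the other widest differences, DHAR1, a dehydroascorbate reductase, had 0.226, 0.217 and 0.34 CPM in Ara-1 against 67.2, 62.6 and 62.6 CPM in treated AtKAI2OE (log2 fold change 7.93 ± 0.15 SE, edgeR adjusted p = 1.1e-07). AT4G07825, an uncharacterised gene, had 0.339, 0.353 and 0.255 CPM against 89.3, 91.2 and 83.5 CPM, with 107, 85.4 and 123 CPM in untreated AtKAI2OE (log2 fold change 8.16 ± 0.13 SE, edgeR adjusted p = 8.7e-08). CYP79B3, which makes the oxime from tryptophan in indole glucosinolate synthesis, had 67.8, 63 and 62.7 CPM in Ara-1 against 4.33, 3.75 and 3.82 CPM (log2 fold change -3.98 ± 0.10 SE, edgeR adjusted p = 1.6e-07), and CYP81F4, which modifies the indole ring, had 103, 92.9 and 89.5 CPM against 4.33, 2.7 and 5.28 CPM (log2 fold change -4.48 ± 0.22 SE, edgeR adjusted p = 2.4e-06). The aspartyl protease gene AT5G19100 had 352, 312 and 367 CPM against 14, 13.7 and 12.8 CPM (log2 fold change -4.64 ± 0.10 SE, edgeR adjusted p = 1.2e-07). Untreated AtKAI2OE held less of these last 3 messages than the treated seeds.

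The tissue label was checked with markers. The embryo genes CRA1, CRC and OLEO1 and the endosperm genes EPR1 and EXPA2 had counts in every library, EPR1 of the micropylar endosperm with 129, 216 and 156 CPM in Ara-1 and 897, 921 and 761 CPM in treated AtKAI2OE (log2 fold change 2.40 ± 0.19 SE, edgeR adjusted p = 2.8e-05). CRA1, CRC and OLEO1 are abundant stored messages, so their presence is a weak check of tissue. Of 4 endosperm genes 3 were higher in treated AtKAI2OE and 1, MAN7, which swung within groups, was not called. The called share was 75%, beside 62.4% over all genes. The seed coat genes BAN and TT10 had no count in any library, and MUM4 and MUM2 were at 24.1 ± 5.25 and 4.73 ± 1.4 CPM in Ara-1 (mean ± SD, n = 3) and at 14 ± 1.53 and 3.64 ± 0.999 CPM in treated AtKAI2OE. The part of tissue proportions in the differences above was not tested.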

How the data were processed

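Total RNA of whole seeds was made into directional libraries and sequenced from a single end. Per the labels and the study's methods, the authors mapped reads to TAIR10 with HISAT2 2.1.0, kept uniquely mapped reads with SAMtools 1.10, and assembled and counted with StringTie 2.1.3 on Araport11. No source used here gives the strand setting of the counting. The deposited matrix holds counts per entry. The deposited normalized files hold a signal, each count divided by a library size factor, which served only the limma alternatives. Of 37054 entries, 35949 name a gene. The 3119 genes with 2 entries were summed, which left 32830 genes, and 1105 entries that name no gene, 13.4 to 35.1% of all counts, stayed out. Of the genes, 32545 matched RefSeq names (TAIR10.1).

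Genes with low counts were removed (filterByExpr, minimum count 10, minimum total 15), and 3 against 3 libraries were fitted with edgeR 4.0.16 (TMM, quasi-likelihood test, Benjamini-Hochberg adjustment, threshold 0.05) in R 4.3.3. Fits were tested on simulated data. Alternatives used DESeq2 1.42.0, limma 3.58.1 (pseudocounts 1 and 10), other scalings, filters and samples. Lists are described by counts and medians, without a test. Group means on the log2 scale had 0.5 CPM added. An exact permutation test of 3 against 3 cannot go below 0.1 and was not used. Named genes carry the sentence on their list, or are among the 15 largest differences each way with an average log2 CPM of at least 4 and no overlap, or among the 5 with most counts where a group had none. Members and lists were chosen with earlier results of these data known.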

Additional observations from a re-analysis of the deposited data

Results flagged for a closer look

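Entries of the count matrix that name no gene lie outside every comparison above and yet held a large share of all counts. They took 35.1, 13.4 and 13.6% of all counts in Ara-1 replicates 1, 2 and 3 and 17.6, 24.3 and 24.6% in treated AtKAI2OE replicates 1, 2 and 3. The largest single entry of this kind took 23.5% of all counts in Ara-1 replicate 1, 7.90 and 7.70% in the other Ara-1 libraries and 10.6 to 15.5% in treated AtKAI2OE. The genes behind these entries are not annotated in the sources used here.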

How the results depend on the processing

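The number of genes higher in treated AtKAI2OE was 5795, and it ran from 4604, with all 9 libraries in the fit, to 5806. The number of genes lower was 5417, and it ran from 3907 to 6574, the last with limma and a pseudocount of 10, where the median over all genes was -0.11. With limma and a pseudocount of 1 the median was -0.12. Leaving out 1 library gave 5076 to 5806 higher genes and 4743 to 5709 lower genes. No pairing by replicate number was seen, since deviations of same-numbered libraries correlated at -0.08, -0.10 and -0.13. Deviations from a mean of 3 libraries depend on each other, so these values cannot exclude a shared batch. A replicate block gave 5267 higher and 4699 lower genes. Of 1958 values of 110 named genes over 18 alternatives, 1894 kept direction and side of the threshold. With only the entry of the gene identifier, MCM4 had an adjusted p of 0.42. Of 100 called genes among them, 8 (CHLH, D14, EXPA2, HSD3, ICL, MCM4, MLS and TUB2) lost the call in at least 1 alternative. Among genes that were not called, KUF1, MAN7, MAX2 and SAG21 passed the threshold with 1 library left out, and some others changed sign. For PCK1, 0.01 as reported, the log2 fold change was -0.020 with RLE scaling, -0.014 with DESeq2, -0.026 with all 9 libraries, -0.0087 with unnamed entries kept, -0.10 with limma at either pseudocount, and -0.10 to 0.19 with 1 library left out. Leaving out 1 library moved CYP707A1 from -0.30 to 0.12 and MAN7 from -7.38 to 0.22. MUM2 was 1.02 with only the entry of the gene identifier, against -0.33. The cause of these changes was not tested. With 3 libraries a group, small differences in genes of low counts cannot be resolved.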

Other observations

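Further gene families, taken by their product names, were divided as follows. Of 19 tested class III peroxidases, which act on cell wall phenolics, 10 were lower in treated AtKAI2OE than in Ara-1 and 1 was higher, with a median log2 fold change of -1.10, and without Ara-1 replicate 1 the counts were 10 and 3 and the median -0.74. Of 22 tested subtilases, a family of secreted proteases, 10 were lower and 5 higher. The called shares of peroxidases and subtilases, 57.9 and 68.2%, lay near the 62.4% of all genes. Of 40 tested histone genes 23 were lower and 9 higher, with a median of -0.56. Of 36 tested proteasome subunit genes 12 were lower, 7 were higher and 17 were not called, with a median of -0.05 that was 0.00 without Ara-1 replicate 1. The called share was 80% for histone genes and 52.8% for proteasome subunit genes, the latter below that of all genes.

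Organelle transcripts were called in either direction in 24.0% of 100 tested plastid genes and 23.6% of 72 tested mitochondrial genes, against 62.4% of all tested genes, and Ara-1 replicate 1 stood apart in both. For mitochondrial genes 14 were higher and 3 lower in treated AtKAI2OE, and 24 were higher and 2 lower without that library, when the median log2 fold change was 0.73 in place of 0.11.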
